A study of Mus musculus with 6 samples.

Results

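H3K27ac regions that were called with IFN-γ and with DMSO, and had no called region with curcuphenol, were selected from ChIPseq of A9 cells. The regions of the 3 lists were merged wherever they overlapped by at least 1 bp, and a merged region was kept when it held IFN-γ and DMSO regions and no curcuphenol region. This gave 7343 missing regions out of 34979 merged regions that held IFN-γ and DMSO regions, a share of 21.0% (95% interval 20.6 to 21.4), and out of 70818 merged regions in all. Because the missing regions were chosen by the calls of all 3 lists, their absence with curcuphenol and their widths are descriptions and not results of a test. A9 is a clonal metastatic line that descends from TC1, mouse lung cells transformed with papillomavirus oncogenes and activated H-ras, and it carries little MHC-I on its surface. They were cultured for 48 h with curcuphenol (0.00167 µmol), with IFN-γ or with 1% DMSO, which was also the vehicle of both agents, and 130000 live cells were taken per treatment. Since each treatment was sequenced as a single H3K27ac library beside a single input, there was no replicate check, no p-value could be given, and the intervals cover counting error only.

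Acetylation of lysine 27 of histone H3 (H3K27ac) is placed by the acetyltransferases p300 and CBP and removed by histone deacetylases. It marks active promoters, and away from promoters it separates active enhancers from poised ones. Enhancers differ between cell types more than promoters do, and narrow acetylated regions are often single enhancers while wide ones join several. Curcuphenol is a phenolic compound of marine sponges and spice plants, and IFN-γ is the cytokine that induces antigen processing and presentation.

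Windows of 7 missing regions are printed here as examples of the promoters, motifs and genes described afterwards. They were read from GRCm38.p6, the assembly that mm10 names, and show the 250 bases before the transcription start site (TSS) for promoters, on the strand of the gene, and the 300 bases around the centre for other regions, on the plus strand. Capitals mark matches, on either strand, to the core of the interferon-stimulated response element (ISRE core, GAAANNGAA), RUNX (TGTGGT), TEAD (GGAATG), the gamma-activated site (GAS, TTCNNNGAA), AP-1 (TGANTCA) and SP/KLF (GGGCGG). Apod (chr16:31314809-31315058) was the widest promoter among the missing regions, and its window is AT-rich. Slit3 (chr11:35121206-35121455) is a GC-rich promoter, and Psmb8 (chr17:34197945-34198194) is the only antigen processing gene with a missing region. Nfkbiz (chr16:55809531-55809830, intergenic), Gbp4 (chr5:105142900-105143199, intergenic), Tgfbr3 (chr5:107128681-107128980, intron) and Tgfb3 (chr12:86013100-86013399, an intron of Ttll5) stand for the inflammatory, interferon and TGF-β genes.
Apod promoter: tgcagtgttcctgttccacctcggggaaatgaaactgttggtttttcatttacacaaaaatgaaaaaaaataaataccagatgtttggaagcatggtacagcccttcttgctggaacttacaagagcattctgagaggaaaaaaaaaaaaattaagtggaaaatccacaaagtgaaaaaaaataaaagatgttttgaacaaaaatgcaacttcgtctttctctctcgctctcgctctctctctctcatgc
Slit3 promoter: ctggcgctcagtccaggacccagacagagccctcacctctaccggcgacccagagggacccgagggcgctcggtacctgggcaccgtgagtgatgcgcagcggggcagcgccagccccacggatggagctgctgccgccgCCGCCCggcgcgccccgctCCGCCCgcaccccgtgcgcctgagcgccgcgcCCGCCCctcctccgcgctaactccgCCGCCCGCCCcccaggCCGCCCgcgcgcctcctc
Psmb8 promoter: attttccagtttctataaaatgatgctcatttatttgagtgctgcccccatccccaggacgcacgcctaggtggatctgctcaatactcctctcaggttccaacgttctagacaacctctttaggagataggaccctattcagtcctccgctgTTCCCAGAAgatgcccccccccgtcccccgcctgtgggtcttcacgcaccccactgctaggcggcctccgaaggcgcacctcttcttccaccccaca
Nfkbiz region: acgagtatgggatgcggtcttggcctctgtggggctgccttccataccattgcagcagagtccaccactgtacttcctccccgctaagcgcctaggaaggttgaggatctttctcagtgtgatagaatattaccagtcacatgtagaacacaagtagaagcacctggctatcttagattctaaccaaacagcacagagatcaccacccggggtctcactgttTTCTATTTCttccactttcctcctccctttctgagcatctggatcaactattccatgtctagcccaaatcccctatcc
Gbp4 region: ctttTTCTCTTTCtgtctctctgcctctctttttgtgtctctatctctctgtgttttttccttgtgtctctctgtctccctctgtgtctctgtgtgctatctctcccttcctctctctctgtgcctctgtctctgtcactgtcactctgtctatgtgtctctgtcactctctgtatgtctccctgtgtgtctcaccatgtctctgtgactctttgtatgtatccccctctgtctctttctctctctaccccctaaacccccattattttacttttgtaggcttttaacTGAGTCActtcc
Tgfbr3 region: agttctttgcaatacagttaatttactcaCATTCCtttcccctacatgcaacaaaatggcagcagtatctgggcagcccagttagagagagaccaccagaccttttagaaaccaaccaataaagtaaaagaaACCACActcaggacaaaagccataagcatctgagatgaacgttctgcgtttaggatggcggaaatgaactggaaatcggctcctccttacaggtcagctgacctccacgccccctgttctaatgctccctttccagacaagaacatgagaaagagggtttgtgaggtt
Tgfb3 region: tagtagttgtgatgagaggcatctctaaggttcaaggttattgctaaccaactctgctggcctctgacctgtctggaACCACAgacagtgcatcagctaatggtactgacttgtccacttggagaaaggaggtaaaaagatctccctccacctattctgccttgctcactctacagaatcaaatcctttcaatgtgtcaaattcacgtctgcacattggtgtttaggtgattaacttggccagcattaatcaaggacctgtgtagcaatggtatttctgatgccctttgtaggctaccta
The Slit3 window held 6 SP/KLF matches at a GC content of 78.8%, whereas the Apod window held none of the 6 motifs at 36.4% GC. The motif shares given further on use the 300 bases around the centre instead. There the Apod region held TEAD, ISRE core, RUNX and SP/KLF matches, and its GC content in 500 bp was 46.2%. The Psmb8 window held 1 GAS match and no ISRE core, and the 300 bases around the centre of its region held no GAS match. The Nfkbiz window held 1 ISRE core match, and the Gbp4 window, much of which is a CT-rich repeat, held 1 ISRE core and 1 AP-1 match. The Tgfbr3 window held 1 RUNX and 1 TEAD match, and the Tgfb3 window 1 RUNX match.

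The 3 lists did not lose regions equally often. Of the merged regions that held curcuphenol and DMSO regions, 1161 of 28797 (4.03%, 3.81 to 4.27) had no IFN-γ region, and of those that held curcuphenol and IFN-γ regions, 3489 of 31125 (11.2%, 10.9 to 11.6) had no DMSO region. The number of called regions was 48763 with curcuphenol, 55622 with IFN-γ and 47899 with DMSO, and these lists covered 70.3, 81.1 and 69.8 Mb. The curcuphenol list held slightly more regions than the DMSO list. Whether the length of a list goes with its share missing was not tested. The lists hold positions without scores or read counts, so that loss of acetylation at a region and a library that was read less deeply there cannot be told apart. For the identity of the cells, 16 of 22 mesenchymal genes had a promoter region with curcuphenol, 18 with IFN-γ and 16 with DMSO. For epithelial and lung genes the counts were 1, 3 and 4 of 25, for endothelial markers 0, 1 and 1 of 12, and for leukocyte markers 0 of 12 in every list. All 16 housekeeping promoters were called in every list.

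Most missing regions were narrow. Their median width was 784 bp in the IFN-γ list (quartiles 465 and 1343.5 bp) and 696 bp in the DMSO list (401 and 1239.5 bp), against 1824 and 1685 bp in the merged regions found in all 3 lists. They held 1 IFN-γ region in 91.9% and 1 DMSO region in 95% of cases, and together they covered 7.42 Mb of the IFN-γ list and 6.67 Mb of the DMSO list, or 9.15% and 9.55% of their called base pairs. The plot of widths shows that 2844 missing regions were nevertheless at least 1000 bp wide with IFN-γ and 2523 with DMSO. At least 5000 bp were covered in 23 of them with IFN-γ and in 13 with DMSO. The IFN-γ width exceeded the DMSO width in 4235 missing regions (57.7%, 56.5 to 58.8), and the median log2 ratio of widths was 0.16 (SD 1.04). In merged regions of all 3 lists 62.2% were wider with IFN-γ, with a median log2 ratio of 0.12 (SD 0.68). Measured over the whole merged region, the median width was 1130 bp in missing regions and 2242 bp in regions of all 3 lists. It was 924 bp in regions missing only with IFN-γ and 1010 bp in those missing only with DMSO. Narrow width was thus not particular to the regions missing with curcuphenol.

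**Figure D1:**
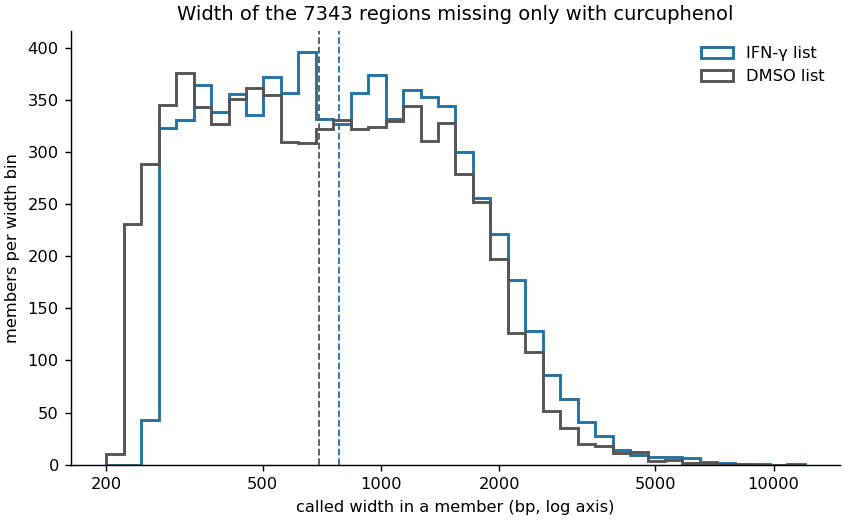
Called width (bp, logarithmic axis) of the 7343 missing regions in the IFN-γ list and in the DMSO list, as the number of regions per width bin. Dashed lines mark the medians of 784 bp with IFN-γ and 696 bp with DMSO, and both curves drop steeply above 2000 bp.

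The share of regions without a curcuphenol call depended on width over its whole range. Of regions up to 300 bp wide with DMSO, 859 of 1532 (56.1%) were missing with curcuphenol. The share was 30.3% from 750 to 1000 bp, 20.2% from 1000 to 1500 bp, 6.60% from 2000 to 3000 bp, and 0.785% above 5000 bp, where 13 of 1655 were missing. The shortest called region measured 297 bp with curcuphenol, 267 bp with IFN-γ and 221 bp with DMSO, and 62 missing regions were narrower than 297 bp in both lists that held them. Width is part of what the calls measure, and a wider region has more room to overlap a curcuphenol region by 1 bp and so not count as missing. The fall with width is thus partly set by the rule, and it is a description of the selection.

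**Figure D2:**
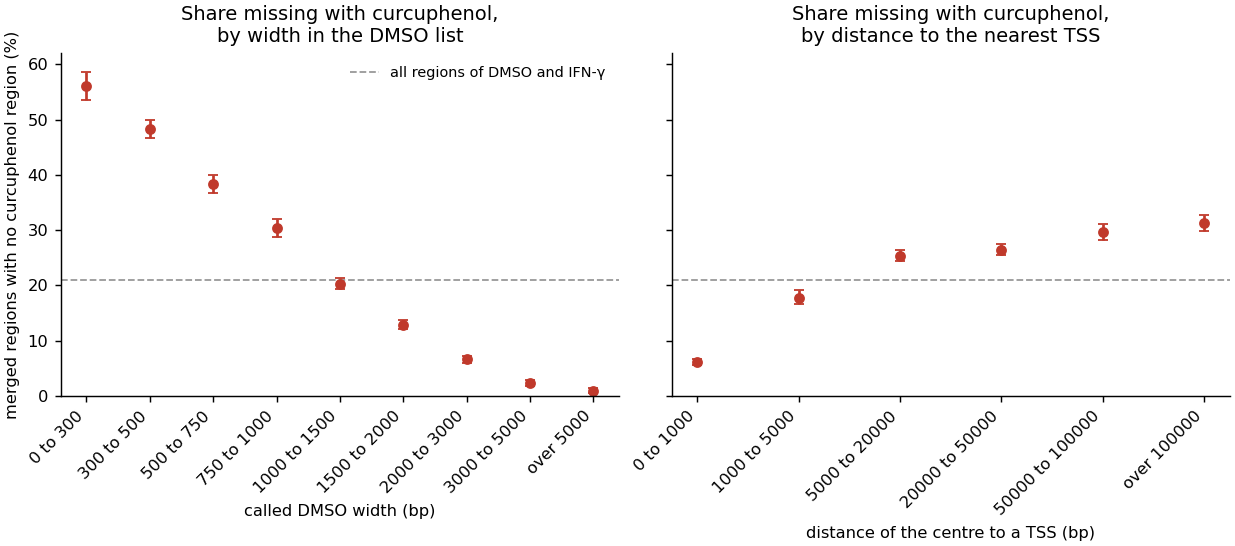
Share (%) of merged regions with IFN-γ and DMSO calls that had no curcuphenol call, by called DMSO width in bp (left) and by distance of the region's centre to the nearest TSS in bp (right). Bars are exact 95% intervals and the dashed line is the share of 21.0% over all such regions. The share drops to 0.785% in the widest bin and reaches 31.2% more than 100000 bp from a TSS.

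Missing regions mostly lay away from promoters. The centre of 251 of them fell within 1000 bp upstream to 100 bp downstream of a TSS, a promoter share of 3.42% (3.01 to 3.86), against 14.3% (13.9 to 14.8) of the regions in all 3 lists. With a window of 2000 bp on either side of a TSS the shares were 9.22% and 35.03%, and with any overlap of the promoter they were 7.08% and 35.9%. Regions missing only with IFN-γ (3.45%) and regions missing only with DMSO (2.64%) had promoter shares of the same low order. Seen from the promoters, 251 of 4213 promoter regions with IFN-γ and DMSO calls had no curcuphenol call, or 5.96%, against 23.1% (7092 of 30766) of the regions elsewhere. Introns held 51.8% of the missing regions and intergenic sequence 39.3%, together 91.1%, against 77.0% of the regions in all 3 lists. The median distance to the nearest TSS was 26565 bp for missing regions and 10330.5 bp for regions in all 3 lists. Regions missing only with IFN-γ lay in introns or intergenic sequence in 92.0% of cases, at a median distance of 34068 bp. For those missing only with DMSO the values were 91.7% and 22458 bp.

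The promoter share was also low at matched width. Among regions of 1000 to 1500 bp with DMSO, 3.46% of the missing regions and 14.9% of those in all 3 lists were promoters, and from 2000 to 3000 bp the shares were 1.22% and 18.6%. The shares lay closer together in narrow regions, at 2.21% and 4.46% up to 300 bp and at 4.21% and 6.67% from 300 to 500 bp. The share missing was 6.09% within 1000 bp of a TSS, 17.8% from 1000 to 5000 bp and 25.3% from 5000 to 20000 bp, and it reached 31.2% (29.8 to 32.7) beyond 100000 bp. By class it was 28.0% (23.3 to 33.1) in 3′ UTRs, where 95 of 339 were missing, 26.3% in intergenic sequence, 22.4% in introns, 11% in coding exons and 7.73% in 5′ UTRs. By base composition, 25.9% were missing at a GC content of up to 35%, 28.5% at 35 to 40% and 5.23% above 65%. The median GC content in 500 bp was 45.4% in missing regions and 48.2% in regions of all 3 lists. Repeats masked in the assembly made up 19.7% and 15.7% of these windows. In regions missing only with IFN-γ the GC content was 41.8% and the repeat share 21.9%, and in those missing only with DMSO 46.8% and 21.9%. Across the chromosomes with over 100 such regions the share ran from 16.7% (14.8 to 18.8) on chromosome 17 to 24.3% (22.1 to 26.6) on chromosome 12.

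Few missing regions ended beside a curcuphenol region. The gap to the nearest curcuphenol region had a median of 8062 bp (quartiles 2848 and 21320 bp). It was below 500 bp for 388 missing regions (5.28%) and below 1000 bp for 707 (9.63%), and at least 20000 bp for 1945 (26.5%). Just inside the rule stood regions nearest to Peak1 (gap 13 bp, called width 441 bp with IFN-γ and 1084 bp with DMSO), Poli (gap 24 bp, 284 and 249 bp) and Tle4 (gap 27 bp, 460 and 1093 bp). Just outside it stood regions where a curcuphenol call overlapped by 27 bp near B4galt1, by 37 bp near Gm4123 and by 59 bp near Rars. A merged region of all 3 lists lay within 20000 bp of 4821 missing regions (65.7%).

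Some missing regions followed one another. In 5676 runs, a run being missing regions with no curcuphenol region and no other shared IFN-γ and DMSO region between them, 2896 missing regions (39.4%) stood in runs of 2 or more, and 28 runs held 5 or more. With 21.0% of regions missing, many would neighbour one another in any order, so these counts are descriptions from which nothing is read. The next IFN-γ and DMSO region on the chromosome was itself missing in 27.6% of cases after a missing region and in 19.2% after a region of all 3 lists, a comparison added after seeing the data. Width and distance to a TSS, which also go with the share missing, were not separated from this difference. The longest run by number held 10 missing regions over 587.568 kb at Mme, which encodes the peptidase neprilysin, and Strit1, a regulator of the sarcoplasmic calcium pump (chr3:63078542-63666109), with 8077 bp called with IFN-γ and 14314 bp with DMSO. A run of 8 covered 308.849 kb at Slit3 and Mir218-2 (chr11:35165518-35474366), with 11265 bp called with IFN-γ and 9388 bp with DMSO. Runs of 7 stood at 4 places, at Gm7854 and C1qtnf7 (150.722 kb), at Dusp6 and Gm20110 (141.115 kb), at Il16 and Cfap161 (72.896 kb) and at Abca1 (42.676 kb). Dusp6 encodes a phosphatase of ERK, Il16 a cytokine and Abca1 a cholesterol exporter, whose run had 11060 bp called with IFN-γ and 8220 bp with DMSO. The runs at Il16 and Abca1 tied with the last of the 5 longest and were named after their values were seen.

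A compact run lay in Tgfbr3, which encodes betaglycan, the co-receptor that presents TGF-β to its signalling receptors. It held 8 missing regions within 24.029 kb (chr5:107127456-107151484), of which 7 were centred in introns and 1 in a coding exon, with 10036 bp called with IFN-γ and 9530 bp with DMSO. The widest of these 8 measured 2261 bp with IFN-γ and 1810 bp with DMSO and ended 977 bp from a curcuphenol region. Over the whole gene, 183.063 kb long, 9 curcuphenol regions covered 24498 bp, against 44 IFN-γ regions over 87225 bp and 40 DMSO regions over 72457 bp. Of 20 merged regions with IFN-γ and DMSO calls nearest to Tgfbr3, 15 were missing with curcuphenol and 5 were in all 3 lists, and no region of curcuphenol alone lay nearest to the gene. The map of the locus shows curcuphenol regions at the TSS and inside the widest acetylated stretches, and gaps between them.

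**Figure D3:**
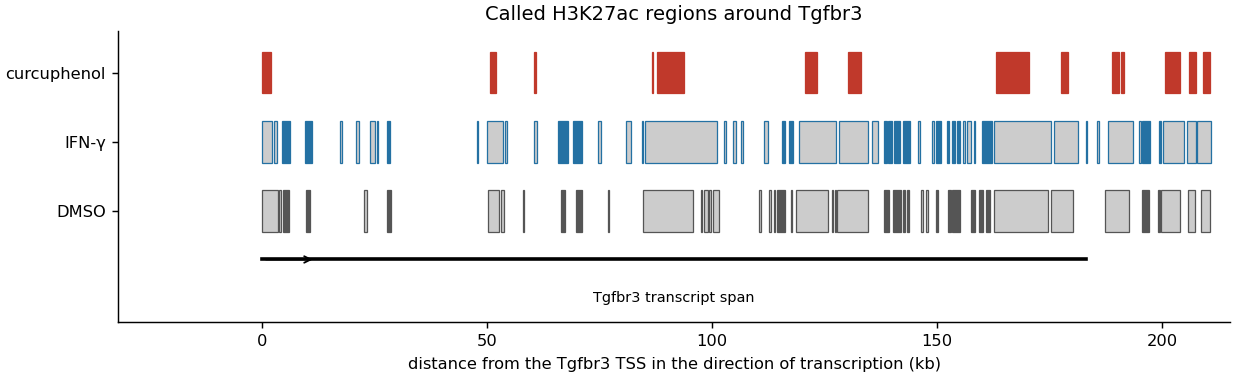
Called H3K27ac regions with curcuphenol (top), IFN-γ and DMSO (bottom) around Tgfbr3, as distance from its TSS in kb in the direction of transcription. Blue and dark grey boxes belong to missing regions, light grey boxes to other IFN-γ and DMSO regions, and red boxes are all curcuphenol regions. The line is the span of the transcripts, and 9 curcuphenol regions stand over it against 44 with IFN-γ and 40 with DMSO.

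Of 14397 genes nearest to a merged region with IFN-γ and DMSO calls, 4532 (31.5%) were nearest to at least 1 missing region, 3003 of them to exactly 1 and 158 to 5 or more. Because genes with many regions have more chances, shares are given beside the counts. After Tgfbr3, the most missing regions were nearest to Efna5, an ephrin ligand (13 of 29 regions), Ank3, which encodes the membrane scaffold ankyrin-G (12 of 25), Slit3, a secreted ligand of ROBO receptors (11 of 14), and Asap1, an ARF GTPase-activating protein (11 of 37). They were followed by the forkhead factor Foxp1 (10 of 20), the protein kinase D gene Prkd1 (10 of 14), the pseudogene Rpl17-ps10 (10 of 20), the retinoic acid receptor gene Rarb (9 of 12) and the GATA-type repressor Trps1 (9 of 21). Most of these genes also had regions called with curcuphenol alone nearest to them, so the difference was not 1-sided. There were 10 at Foxp1, 5 at Efna5 and 4 at Ank3. Asap1, Rpl17-ps10, Rarb and Trps1 had 3 each, Prkd1 had 1 and Slit3 had 0. The missing regions counted for Efna5 lay 62281 to 1677410 bp from its TSS. At Slit3 the promoter itself was missing (chr11:35119855-35122469), with 2310 bp called with IFN-γ and 2615 bp with DMSO. The widest region at Slit3 was intronic, with 4112 bp with IFN-γ and 3089 bp with DMSO, and lay 197633 bp from a curcuphenol region. All regions with IFN-γ and DMSO calls were missing for 908 genes, of which 734 had 1 such region and 8 had 5 or more. Among these 8, chosen after their values were seen, were the lysyl oxidase gene Loxl2 (6 of 6), Apol8 (6 of 6), the TNF family ligand Tnfsf18 (6 of 6) and the RNA-binding protein gene Msi2 (5 of 5).

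The widest missing regions, ranked by the smaller of both widths, lay in introns and intergenic sequence. The first was centred in an intron nearest to 1700099I09Rik (chr13:102844225-102852681) and measured 7092 bp with IFN-γ and 8345 bp with DMSO, 4607 bp from a curcuphenol region. The region nearest to Spdl1, which encodes the mitotic adaptor Spindly (chr11:34972088-34981120), measured 6475 bp with IFN-γ and 7958 bp with DMSO and lay 69435 bp from the nearest curcuphenol region. Near Rgl1, an exchange factor for Ral, the widths were 7903 bp with IFN-γ and 5818 bp with DMSO (chr1:152597463-152605365). Near Tgfb3, which encodes the ligand TGF-β3, they were 6142 bp with IFN-γ and 5710 bp with DMSO (chr12:86010166-86016333), 65792 bp from its TSS. Near Nfkbiz, which encodes the atypical IκB protein of inflammatory transcription, they were 5402 bp with IFN-γ and 6260 bp with DMSO (chr16:55805851-55813511). These 5 were all several kilobases wide in both lists, far above the median of missing regions. The others of the 10 widest lay nearest to Synpo, Pdzrn3, Dnah6, Srr and C1qtnf1.

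Of the missing promoters, that of Apod, which encodes the secreted lipid carrier apolipoprotein D, was the widest (chr16:31313020-31317376), with 4357 bp with IFN-γ, 3838 bp with DMSO and 20877 bp to the nearest curcuphenol region. E230016K23Rik followed with 3180 bp with IFN-γ and 4112 bp with DMSO. The promoters of Ptk7, a receptor-like pseudokinase of planar cell polarity, and Tmem119, a membrane protein of bone and microglia, measured 2422 and 2521 bp with IFN-γ and 2139 and 2125 bp with DMSO. The remaining widest promoters belonged to Akap7, Fam222b, Dmp1, Tnfsf13 and Abhd14b. Their GC content in 500 bp ran from 38.4% (Akap7) to 71.2% (Slit3).

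Gene groups were described by how many of their nearest regions were missing, beside the share of 21.0% over all regions. Shares without the gene that had the most missing regions were added after seeing the data. Housekeeping genes had 1 of 38 regions missing (2.63%, 0.0666 to 13.8). MHC class I genes had 1 of 16 (6.25%, 0.158 to 30.2), nearest to Cd1d1, which presents lipids to NKT cells. It was an intergenic region of 1311 bp with IFN-γ and 1511 bp with DMSO, 74265 bp upstream of the Cd1d1 TSS. Antigen processing genes had 1 of 13 (7.69%, 0.195 to 36.03), the promoter of Psmb8, a catalytic subunit of the immunoproteasome, of 3019 bp with IFN-γ and 689 bp with DMSO (chr17:34196378-34199396). The intervals of both antigen presentation groups reach past 21.0%, so that a lower share than elsewhere was not detectable with so few regions. That of the housekeeping genes ended below it, at regions with a median DMSO width of 2015.5 bp. Over all regions the share missing was 12.9% from 1500 to 2000 bp and 6.60% from 2000 to 3000 bp. Among groups of at least 10 regions this median ran from 1199.5 bp (epithelial and lung) to 2067.5 bp (cell cycle). The group shares were not matched for width.

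Interferon-stimulated genes had 11 of 70 regions missing (15.7%, 8.11 to 26.4), at 8 of 45 genes, against 31.5% over all genes with a region. Of these missing regions 10 of 11 were wider in the IFN-γ list and 8 of 11 by a factor of at least 2. Over all missing regions 57.7% were wider with IFN-γ, and that factor was reached in 19.8%. Regions of this group that kept a curcuphenol call were not compared, so the widths are not read as a trait of the missing ones. Those at Gbp4 and Gbp10 on chromosome 5, and at Tgtp2 and Ifi47 on chromosome 11, are neighbours and not independent. The region near Tgtp2, an interferon-inducible GTPase (chr11:49054261-49065817), measured 11557 bp with IFN-γ and 1226 bp with DMSO. Near Gbp4, a guanylate-binding protein (chr5:105138267-105147833), the values were 9567 bp with IFN-γ and 1736 bp with DMSO. The promoters of Gbp10 (2640 and 937 bp) and of the GTPase gene Ifi47 (1870 and 743 bp) also had no curcuphenol region. Oas2, an activator of RNase L, had 3061 bp with IFN-γ and 1393 bp with DMSO, 187 bp from its TSS. The region nearest to Ifit3, an antiviral tetratricopeptide protein, had 3660 and 3417 bp. It was centred in an intron 13609 bp upstream of the Ifit3 TSS. Genes of IFN-γ signalling had 22 of 88 regions missing (25%, 16.4 to 35.4). Of these, 17 of the 22 were wider with IFN-γ, against 57.7% of all missing regions. Examples were nearest to the receptor genes Ifngr1 (1974 bp with IFN-γ and 1779 bp with DMSO) and Ifnar2 (2263 and 1498 bp). These were intergenic, 28691 and 9539 bp upstream of the TSS. Others were nearest to Irf5 (3114 and 1485 bp, 28082 bp from its TSS) and to Irf2, with 4 missing regions.

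Chemokine genes had the highest share of the groups with at least 10 regions, 13 of 31 missing (41.9%, 24.5 to 60.9). The missing ones were nearest to 6 of 13 genes with a region, against 31.5% over all genes. They lay among the CXC genes of chromosome 5 and the CC genes of chromosome 11, and neighbouring regions of such clusters are not independent. On chromosome 5 the promoter of Cxcl5, a neutrophil attractant (chr5:90757382-90759295), measured 1865 bp with IFN-γ and 1445 bp with DMSO, and 3 intergenic regions near Cxcl1 measured 333 to 1089 bp with IFN-γ and 628 to 1890 bp with DMSO. On chromosome 11 the widest region near Ccl2, a monocyte attractant (chr11:82018338-82021617), measured 3280 bp with IFN-γ and 1394 bp with DMSO, and that near Ccl11 measured 1789 and 1061 bp. Cxcl1 and Cxcl5 each had 3 of 4 regions missing, and without both 7 of 23 (30.4%, 13.2 to 52.9) were missing, an interval that contains 21.0%. NF-κB genes had 14 of 62 missing (22.6%, 12.9 to 34.97).

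Collagen genes had 33 of 105 regions missing (31.4%, 22.7 to 41.2). These lay at 20 of 24 genes with a region, against 31.5% over all genes, but genes with more regions have more chances. The widest was nearest to Col1a2, of type I collagen (2904 bp with IFN-γ and 2516 bp with DMSO), but 202322 bp from its TSS. Those nearest to Col4a1 and Col4a2, of the basement membrane, measured 2374 and 1985 bp with IFN-γ and 2513 and 2168 bp with DMSO. They were centred in introns 72715 and 34441 bp upstream of these TSSs, so the genes are named by distance only. Near Col6a2 the widths were 2459 and 2160 bp, and the promoter of Col6a1 was missing as well. In this group 13 of 33 were wider with IFN-γ, against 57.7% of all missing regions. TGF-β and BMP genes had 42 of 129 missing (32.6%, 24.6 to 41.4), but Tgfbr3 held 15 of them, and without it the share was 27 of 109 (24.8%). Besides Tgfb3, examples were nearest to the receptor gene Bmpr1a (1494 bp with IFN-γ and 1344 bp with DMSO, 6069 bp upstream of its TSS) and to Smad3, a mediator of TGF-β (2396 and 1098 bp). YAP and TEAD genes had 23 of 74 missing (31.1%, 20.8 to 42.9), 7 of them near Tead1. Their widest measured 3645 bp with IFN-γ and 2205 bp with DMSO.

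Receptor tyrosine kinase genes had 26 of 87 regions missing (29.9%, 20.5 to 40.6). Mertk, a receptor for clearance of dead cells, had a region of 3614 bp with IFN-γ and 3315 bp with DMSO, and Ddr2, a collagen receptor, one of 2677 and 2258 bp. Promoter regions of Ddr1, Ephb2 and Erbb2 were missing, of 911, 285 and 1063 bp with IFN-γ and 385, 264 and 1013 bp with DMSO. That of Ephb2 was narrower in both lists than the shortest curcuphenol region (297 bp). That of Ddr1 lay 1073 bp from a curcuphenol region. WNT genes had 30 of 113 missing (26.5%, 18.7 to 35.7). Examples were nearest to the antagonist Dkk3 (3396 bp with IFN-γ and 2892 bp with DMSO) and the receptor Fzd1 (2008 bp with both, 272163 bp from its TSS). Histone deacetylase and acetyltransferase genes had 16 of 78 missing (20.5%, 12.2 to 31.2), close to the share over all regions. Among them were an intronic region of Hdac7 (2177 bp with IFN-γ and 2361 bp with DMSO) and promoter regions of Hdac7, Hdac9 and Kat2a. These promoter regions measured 1034, 609 and 269 bp with IFN-γ and 583, 1114 and 609 bp with DMSO. A region centred at any TSS of a gene counts as its promoter, so other promoters of these genes may have kept a call. FOXO and NR4A genes (21.2%), mesenchymal genes (23.7%) and cell cycle genes (19.1%) also had shares near 21.0%. AP-1 genes had 6 of 39 (15.4%, 5.86 to 30.5). Epithelial and lung genes had 13 of 42 missing (31.0%), and 22.6% without Trp63. Endothelial markers had 7 of 22 (31.8%) and leukocyte markers 1 of 2. The plot of gene groups shows that most intervals contain 21.0%, and only the chemokine, collagen and TGF-β intervals lay above it, the last with Tgfbr3 included. Away from promoters, where the share over all regions was 23.1%, the chemokine share was 41.4% (23.5 to 61.1) and the TGF-β and BMP share 34.1% (25.8 to 43.2), and the collagen interval (31.4%, 22.5 to 41.3) contained 23.1%. The first 2 of these shares still include Cxcl1 and Cxcl5, and Tgfbr3. Without these genes, and with promoters included, the shares were 30.4% (13.2 to 52.9) for chemokines and 24.8% for TGF-β and BMP genes.

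**Figure D4:**
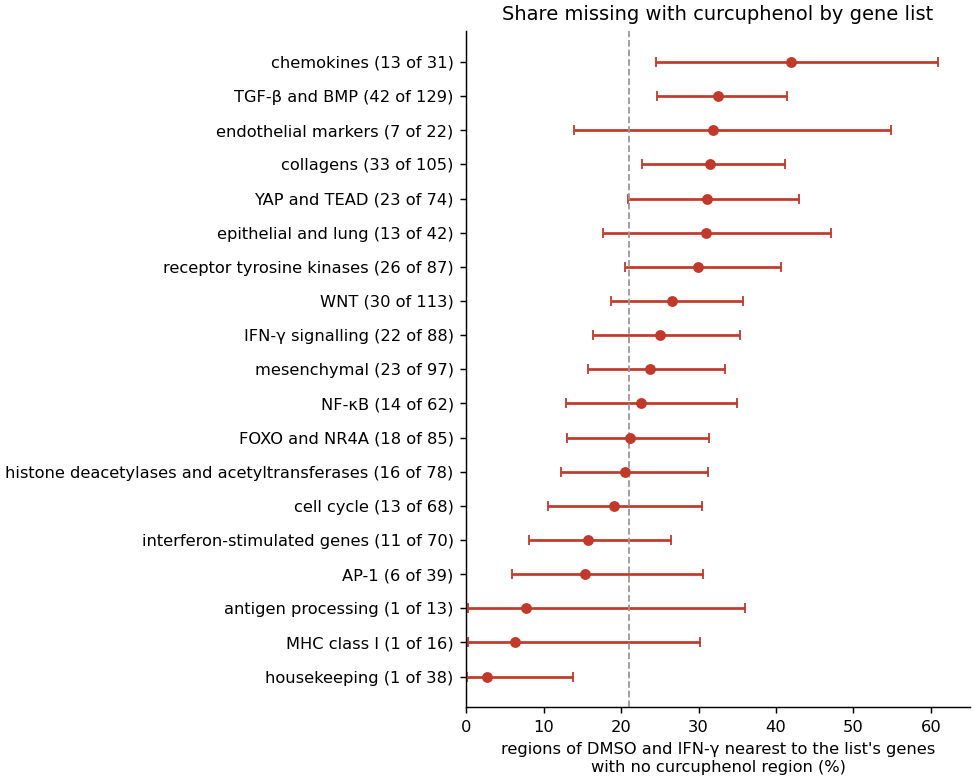
Share (%) of merged regions with IFN-γ and DMSO calls nearest to the genes of each group that had no curcuphenol call, with exact 95% intervals, counts in parentheses, for groups of 10 or more regions. The dashed line is the share of 21.0% over all regions. Chemokine genes stand highest at 41.9% and housekeeping genes lowest at 2.63%.

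Motifs were counted in the 300 bp around the centre, on both strands, which the calls did not use directly. The ISRE core was found in 13.9% (13.1 to 14.7) of missing regions, against 9.67% (9.33 to 10.03) of regions in all 3 lists and 11% of all merged regions. It was present in 12.1% of regions missing only with IFN-γ and in 10.1% of those missing only with DMSO. Regions called in 1 list alone held it in 9.27% of cases with curcuphenol, 12.6% with IFN-γ and 14.0% (13.2 to 14.8) with DMSO, and this last interval overlapped that of the missing regions. RUNX was found in 26.4% of missing regions, 21.2% of regions in all 3 lists and 22.7% of all merged regions, and TEAD in 18.5%, 16.1% and 16.3%. AP-1 went the other way, with 18.8% (17.9 to 19.7) in missing regions, 22.3% (21.8 to 22.8) in regions of all 3 lists and 18.6% of all merged regions. It was present in 27.6% of regions missing only with IFN-γ and 25.4% of those missing only with DMSO, and these intervals did not overlap that of the regions missing with curcuphenol. In regions called in 1 list alone AP-1 was found in 17.7% (17.05 to 18.4) with curcuphenol, an interval that overlapped that of the missing regions, in 10.04% with IFN-γ and in 14.3% with DMSO.

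Motifs of GC-rich promoters were scarcer than in regions of all 3 lists. SP/KLF was found in 6.85% of missing regions, 19.1% of regions in all 3 lists and 10.2% of all merged regions, and ETS (CCGGAAG) in 1.29%, 4.77% and 2.62%. GAS was found in 10.2%, 8.95% and 9.55%, FOX (TGTTTAC) in 5.30%, 4.23% and 4.43%, NF-Y (CCAAT) in 32.6%, 29.7% and 32.0%, the E-box of ZEB and SNAI factors (CACCTG) in 15.8%, 17.7% and 18.3%, and CRE (TGACGTCA) in 0.368%, 0.727% and 0.449%. In regions missing only with IFN-γ, SP/KLF was found in 4.22%, ETS in 1.21%, GAS in 10.9% and FOX in 4.91%. In those missing only with DMSO the shares were 6.13%, 1.58%, 9.20% and 3.93%. Low shares of SP/KLF and ETS were thus not particular to the regions missing with curcuphenol. A further comparison was chosen after seeing the data. Regions were limited to a GC content of 40 to 50% and a DMSO width of 500 to 1500 bp. AP-1 was then found in 20.9% (19.2 to 22.7) of 2134 missing regions and 33.0% (31.7 to 34.4) of 4546 regions in all 3 lists, and the ISRE core in 15.8% (14.3 to 17.4) and 12.1% (11.2 to 13.1). The intervals for RUNX (28.2% and 26.4%) and TEAD (19.5% and 18.5%) overlapped there, as did those for GAS, NF-Y, the E-box and CRE. Those for FOX (6.89% and 4.80%), SP/KLF (3.47% and 5.08%) and ETS (1.03% and 2.18%) did not. Turned round, 27.7% (26.2 to 29.2) of regions with an ISRE core and 20.2% without it were missing with curcuphenol, and 18.3% of regions with AP-1 and 21.7% without it.

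**Figure D5:**
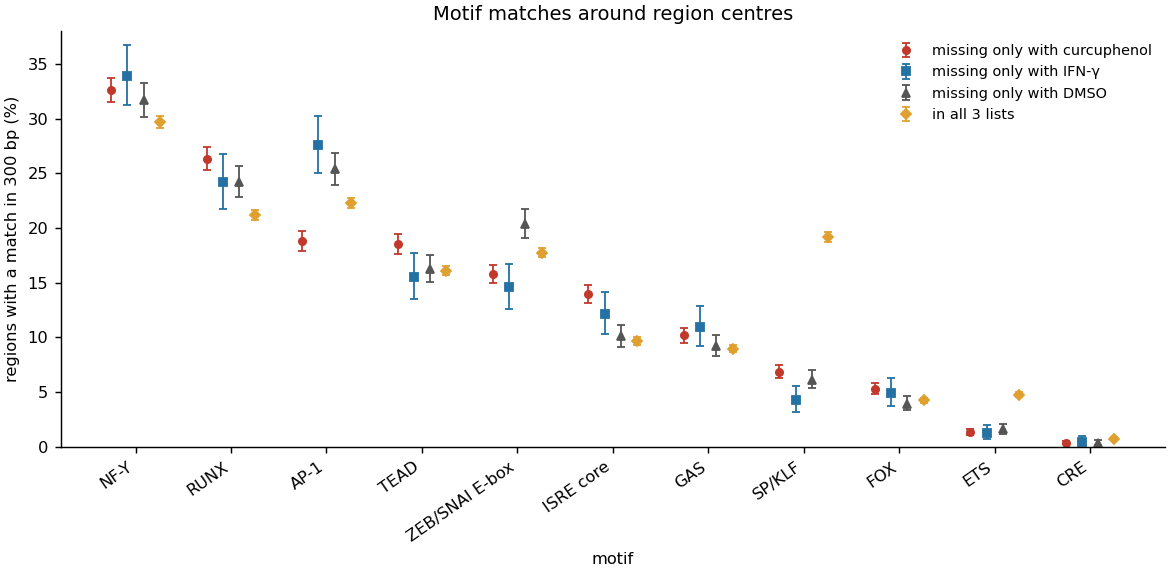
Share (%) of regions with a match to each motif in the 300 bp around the centre, for regions missing only with curcuphenol, only with IFN-γ or only with DMSO and for regions in all 3 lists, with exact 95% intervals. The ISRE core stands at 13.9% in regions missing only with curcuphenol against 9.67% in all 3 lists, and AP-1 at 18.8% against 22.3%.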

How the data were processed

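H3K27ac ChIPseq was measured in A9 cells in 3 treatments, with 1 H3K27ac and 1 input library each. Per the submitters' processing notes and the study's methods, the authors aligned reads to mm10 with BWA (0.7.17 in the notes, while the methods name a different version) and called regions per library with MACS2 (2.1.2, FDR cutoff 0.01, paired-end fragments) against the input of the same treatment. The deposited values are start and end positions in bp with a name, without a score, a p-value or a read count, so depth is not known and a called region says nothing of its height.

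Lists were merged at 1 bp of overlap with Python 3.11.15, pandas 2.3.3 and numpy 2.4.6, and tested on simulated data. A region called very wide in one list can be joined to a curcuphenol region at its other end and is then not counted as missing. Centres were assigned to 45756 curated RefSeq transcripts of GRCm38.p6 (mm10) in Homer's order of classes and to the nearest TSS, which need not be the gene a region regulates. Shares carry exact Clopper-Pearson 95% intervals from scipy 1.17.1. Sequences and repeats came from the same assembly. Figures were drawn with matplotlib 3.10.9.

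The missing regions and 20 gene lists (447 genes, all found in the annotation), and 11 motifs, were chosen with earlier results of these data known. Genes named are those nearest to the 10 widest missing regions and the 10 widest missing promoters, the 10 genes with the most missing regions, the 5 longest runs, up to 4 genes per list (widest first), every MHC class I and antigen processing gene, and regions at the edge of the rule. Alternatives changed the joining distance, the minimum width, the promoter window, the motif window and the TSS set.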

Additional observations from a re-analysis of the deposited data

How the results depend on the processing

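No paired analysis was possible because each treatment has 1 H3K27ac library. The number of missing regions was 7343. It was 6698 when regions within 500 bp were joined, 6214 within 1000 bp, 4987 from called regions of at least 500 bp and 8996 as unmerged DMSO regions. It dropped to 3667 with called regions of at least 1000 bp only, and to 3669 when IFN-γ and DMSO regions had to overlap by 50% in both directions. The share missing was 20.02% and 19.3% with joining within 500 and 1000 bp, 18.3% and 19.2% with minimum widths of 500 and 1000 bp, against 21.0%. The promoter share of 3.42% was 9.22% with 2000 bp on either side, 7.08% with any overlap and 3.01% for missing regions at least 1000 bp from a curcuphenol region. In 500 bp in place of 300 bp, a longer window, the motif shares were 27.3% for AP-1, 0.545% for CRE, 28.4% for TEAD, 16.3% for GAS, 21.6% for the ISRE core, 38.5% for RUNX, 25% for the E-box, 47.7% for NF-Y, 10.5% for SP/KLF, 8.46% for FOX and 2.07% for ETS. Limited to missing regions of 40 to 50% GC, an alternative chosen after seeing the data, the shares were 14.8% for the ISRE core, 28.0% for RUNX, 33.8% for NF-Y, 3.03% for SP/KLF and 0.930% for ETS. Median GC content, median TSS distance (33361 bp to coding genes only) and the number of genes (4131 within 100 kb) moved by less than their spread or by less than 1.5 times. An absent call has no error estimate here, and intervals do not cover variation between cultures.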
